A study of Arabidopsis thaliana with 18 samples.

Results

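AT1G65500, AT1G21520, AT5G22530, AT3G57460 and AT5G61890 are 5 Arabidopsis thaliana genes whose signal in wild-type root tips was higher on every array after the peptide TOLS2 than on every control array. This pattern, which was part of the choice and is no finding, held for 6.78% of all tested probe sets. AT5G61890 belongs to the AP2/ERF family of plant transcription factors, and no family is given here for the other 4. The annotation used here gives all 5 only a locus identifier. They were chosen by their wild-type values, the first 4 also for a dim control signal. They are 5 of the 16722 rows of the array that carry exactly 1 gene. Each had 1 such row, and no other row repeated its values. The wild-type values, and any difference taken against wild type, are therefore given as a description with no test. The mutant arrays played no part in the rule and carry the tests, whose spread was estimated over all 18 arrays. The genes were, however, chosen with earlier results of these data known.

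TOLS2 is a secreted signalling peptide made in roots, and RLK7 is a receptor kinase of the plasma membrane with a leucine-rich repeat domain outside the cell. Peptide signals of this kind bind a receptor kinase at the cell surface, and transcription in the responding cell then changes. In the root, TOLS2 and RLK7 are known for limiting the number of lateral root founder cells, and PUCHI, also an AP2/ERF factor, acts in the formation of lateral roots.

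Wild type, the rlk7-3 mutant and the puchi-2 mutant were each measured as control and after 3 h on medium with 1 µM TOLS2. That gives 6 groups of 3 arrays, called biological replicates in the labels. All seedlings were grown for 5 days under continuous light, and each sample pooled about 80 root tips of 1 cm. The labels give neither the lesions nor the background lines of the mutants. Values are log2 levels made by the authors with RMA, which brings all arrays to a common distribution, and changes were tested with limma across 17481 probe sets (a probe set is a row of the table). A call means an adjusted p under 0.05 (Benjamini-Hochberg over all of them, two-sided). Because whole root tips were measured, more cells with a transcript and more transcript per cell cannot be told apart.

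Array medians ran from 6.19 to 6.30, and no correlation between a pair of arrays was below 0.983. On the second principal component (11.0% of the variance) the replicate 1 array stood apart from the other arrays of its group in all 6 groups, so results are also given without those arrays. RLK7 had no row named for it and was not followed. The PUCHI signal was 5.31 ± 0.23 (SD, n = 3) in control arrays labelled puchi-2, beside 4.56 ± 0.37 in wild-type and 4.27 ± 0.10 in rlk7-3 controls. A lower transcript therefore does not mark this genotype here, and its samples are referred to as puchi-2-labelled. PUCHI was called higher on puchi-2-labelled than on rlk7-3 arrays in control (1.04, limma adjusted p = 0.0284) and under TOLS2 (1.81, adjusted p = 9.19e-06). Of 15 alternatives, 7 kept the call in control and 15 kept that under TOLS2. Of 8 root tip markers listed 1 was measured, AT5G48940, with group means from 8.40 to 8.52. Of 7 shoot markers RCA, for rubisco activase, and PRK, for phosphoribulokinase, were measured, and neither endodermis nor flower markers were.

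AT1G65500 had the largest response of the 5 genes. In wild type its level was 5.21, 4.01 and 3.83 on the control arrays and 8.04, 8.66 and 9.05 with TOLS2 (log2, replicates 1 to 3). Control replicate 1 was the highest of the 3 controls by more than the other 2 differed, yet the lowest TOLS2 array still lay 2.83 above it. The means differed by 4.24 on the log2 scale (18.8-fold), the second largest wild-type rise among the 1-gene rows. Its wild-type control mean of 4.35 ± 0.75 (SD, n = 3) exceeded those of 32.7% of the tested probe sets, so of the 4 genes described as near background it was the least dim. In rlk7-3 the levels were 4.10, 3.61 and 3.45 in control and 3.50, 3.92 and 3.63 with TOLS2, and the ranges overlapped. The change was −0.03 (SE 0.33, 95% interval −0.75 to 0.68, limma adjusted p = 0.991), so the interval bounds any rise of the signal at 1.60-fold. On puchi-2-labelled arrays the levels were 3.78, 4.43 and 3.92 in control and 7.70, 8.34 and 8.18 with TOLS2. The lowest TOLS2 array stood 3.27 above the highest control, and AT1G65500 rose by 4.03 (16.3-fold, SE 0.33, n = 3, limma adjusted p = 8.02e-06).

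AT1G21520 had the smallest standard error of the 5 genes. Its wild-type levels were 3.06, 3.39 and 3.61 in control and 5.60, 5.82 and 6.01 with TOLS2, a difference of 2.45 (5.48-fold). In rlk7-3 they were 3.34, 3.23 and 3.43 in control and 3.64, 3.62 and 3.49 with TOLS2. Each rlk7-3 TOLS2 array thus lay above each rlk7-3 control array, by as little as 0.06, and this small shift was not called (0.25, SE 0.14, 95% interval −0.05 to 0.55, limma adjusted p = 0.763). Levels of 3.42, 3.84 and 3.65 on puchi-2-labelled controls stood against 5.51, 5.37 and 5.60 with TOLS2. No TOLS2 array came within 1.53 of a control array. The gene rose by 1.86 (3.62-fold, SE 0.14, n = 3, limma adjusted p = 2.9e-06).

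AT5G22530 was the dimmest of the 5. Wild-type control levels of 2.31, 2.39 and 2.42 exceeded those of 7.61% of tested probe sets in the mean, and the TOLS2 levels were 4.33, 4.43 and 4.53. Both groups were tight, and the means differed by 2.06 (4.17-fold). In rlk7-3 the levels were 2.32, 2.28 and 2.21 in control and 2.19, 1.96 and 1.97 with TOLS2. Here every TOLS2 array lay below every control array. The change of −0.23 was not called (SE 0.18, 95% interval −0.60 to 0.15, limma adjusted p = 0.812). The puchi-2-labelled levels were 2.43, 2.46 and 1.98 in control and 4.42, 3.52 and 4.18 with TOLS2, so replicate 2 was the lowest of its TOLS2 arrays. The rise was 1.75 (3.37-fold, SE 0.18, n = 3, limma adjusted p = 6.4e-05).

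AT3G57460 had wild-type levels of 2.40, 3.03 and 2.86 in control and 5.16, 5.61 and 4.89 with TOLS2, a difference of 2.46 (5.51-fold). In rlk7-3 they were 3.16, 2.76 and 3.06 in control and 2.62, 3.61 and 2.68 with TOLS2. One rlk7-3 TOLS2 array, replicate 2, was higher than all 3 controls while the other 2 were lower than all 3. The mean change was −0.02 (SE 0.25, 95% interval −0.56 to 0.52, limma adjusted p = 0.992). On puchi-2-labelled arrays the levels were 3.09, 3.32 and 3.05 in control and 5.52, 4.98 and 5.17 with TOLS2. The groups were 1.66 apart at their nearest arrays. The rise was 2.07 (4.19-fold, SE 0.25, n = 3, limma adjusted p = 0.000469), and the TOLS2 means of both backgrounds were alike at 5.22 ± 0.27 here and 5.22 ± 0.36 in wild type (SD, n = 3). The lowest puchi-2-labelled control array, at 3.05, lay just above the highest wild-type control array, at 3.03. The means were 3.15 and 2.76, a difference of 0.39 (SE 0.25) that carries no test.

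AT5G61890, the AP2/ERF gene, had wild-type levels of 3.22, 3.36 and 3.44 in control and 5.27, 5.97 and 5.47 with TOLS2. The difference was 2.23 (4.69-fold). In rlk7-3 the levels were 3.22, 3.70 and 3.43 in control and 3.18, 2.78 and 3.72 with TOLS2, with overlapping ranges and a change of −0.22 (SE 0.33, 95% interval −0.93 to 0.48, limma adjusted p = 0.912). On puchi-2-labelled arrays the control levels were 3.33, 3.32 and 2.85, and the TOLS2 levels were 7.12, 6.21 and 5.48. These 3 TOLS2 arrays spanned 1.65, the widest range of any of the 5 genes in any group, and the lowest of them still lay 2.15 above the highest control. AT5G61890 rose by 3.10 (8.60-fold, SE 0.33, n = 3, limma adjusted p = 0.000118).

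**Figure D1:**
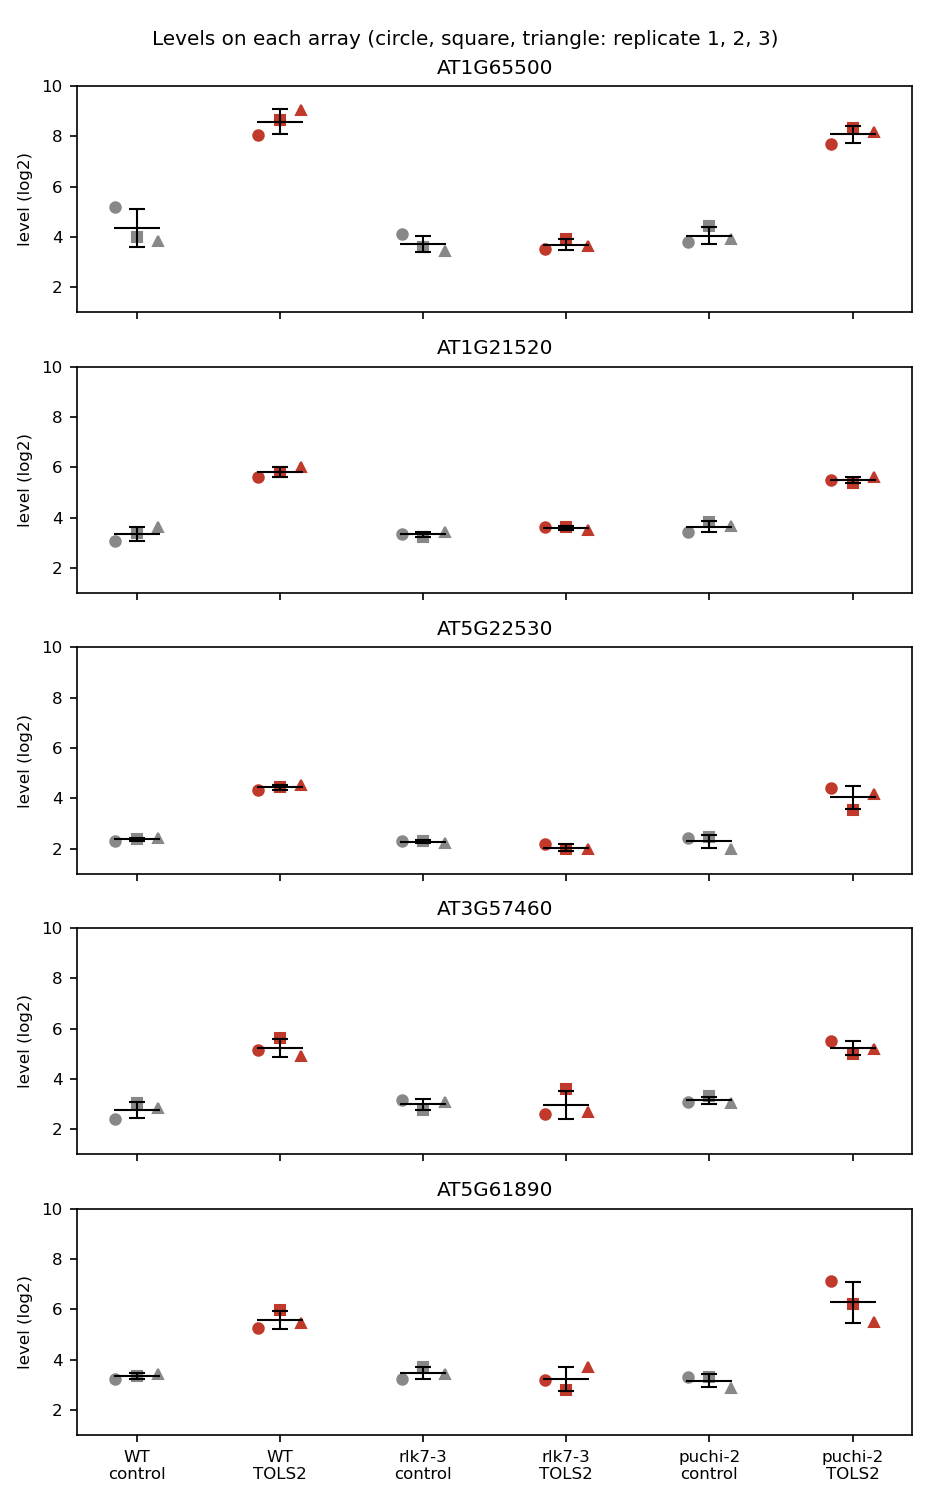
Log2 level of each of the 5 genes (one panel each) on all 18 arrays, with grey symbols for control and red for TOLS2. Circles, squares and triangles are replicates 1, 2 and 3, and bars give the mean ± SD of 3 arrays. The wild-type and puchi-2-labelled TOLS2 arrays lie above every control array in every panel, while rlk7-3 arrays lie near control level with and without TOLS2.

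The response in rlk7-3 was read in 2 ways. Within rlk7-3, limma called 0 of the 5 genes after TOLS2, where 0.00572% of all tested probe sets were called. At an unadjusted p under 0.05 there were also 0 of the 5, where 7.18% of all tested probe sets passed. The median change of the 5 was −0.03, beside 0.06 over all tested probe sets. The ranges of treated and control arrays did not overlap for 1 gene upward (AT1G21520) and 1 downward (AT5G22530), where 10.6% and 1.6% of all tested probe sets did so. The upper ends of the 95% intervals allowed a rise of at most 1.60-fold for AT1G65500, 1.46-fold for AT1G21520, 1.43-fold for AT3G57460, 1.39-fold for AT5G61890 and 1.11-fold for AT5G22530. Rises up to these sizes lie within the intervals. They are bounds on the array signal, and RMA shrinks differences of dim probe sets, of which AT5G22530 was the dimmest here. The rlk7-3 change minus the wild-type change was −4.27 for AT1G65500, −2.20 for AT1G21520, −2.29 for AT5G22530, −2.48 for AT3G57460 and −2.45 for AT5G61890 on the log2 scale. These differences contain the arrays that chose the genes and are not tested.

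The second reading set both mutants against each other. No wild-type array entered these differences, but their SE and adjusted p rest on a spread estimated from all 18 arrays. A smaller response in rlk7-3 and a changed response on puchi-2-labelled arrays cannot be told apart in this comparison. The TOLS2 response was larger on puchi-2-labelled than on rlk7-3 arrays for all 5 genes, where limma called 0.177% of all tested probe sets in that direction. The difference of the responses was 4.06 for AT1G65500 (SE 0.47, n = 3, limma adjusted p = 0.000882) and 3.33 for AT5G61890 (SE 0.47, adjusted p = 0.00439). It was 2.09 for AT3G57460 (SE 0.36, adjusted p = 0.0194), 1.98 for AT5G22530 (SE 0.25, adjusted p = 0.00164) and 1.61 for AT1G21520 (SE 0.20, adjusted p = 0.00158). The median of the 5 was 2.09, beside −0.07 over all tested probe sets.

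This response difference was the least secure of the calls. Without the replicate 1 arrays of all groups only AT1G65500 was called, and the other 4 kept a difference of 1.52 (AT1G21520, limma adjusted p = 0.0608), 1.91 (AT5G22530, 0.113), 1.65 (AT3G57460, 0.38) and 3.07 (AT5G61890, 0.116). The call of AT3G57460 also ended without any 1 of rlk7-3 control replicates 1 and 3, rlk7-3 TOLS2 replicates 1 and 3, puchi-2-labelled control replicates 1 and 3 and puchi-2-labelled TOLS2 replicate 1 (adjusted p from 0.0523 to 0.0689). When the spread was estimated from the 12 mutant arrays alone, AT3G57460 (0.0687) and AT5G61890 (0.0511) were not called. Over the alternatives, the calls among all tested probe sets in this comparison ran from 7 to 88, beside 54 in the main fit.

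With TOLS2 on both sides, puchi-2-labelled arrays were higher than rlk7-3 arrays for all 5 genes, where 1.17% of all tested probe sets were called higher. AT1G65500 was higher by 4.39 (20.9-fold, SE 0.33, n = 3, limma adjusted p = 3.48e-06), AT5G61890 by 3.04 (8.24-fold), AT3G57460 by 2.25 (4.76-fold), AT5G22530 by 2.00 (4.00-fold) and AT1G21520 by 1.91 (3.76-fold). The adjusted p of the last 4 ran up to 0.000157. No puchi-2-labelled TOLS2 array overlapped an rlk7-3 TOLS2 array for any of the 5 (ranges apart and higher in 4.78% of all tested probe sets). All 5 were also called without the replicate 1 arrays, while AT5G61890 was not called when the fit held the TOLS2 arrays of both mutants alone (limma adjusted p = 0.059).

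Among control arrays no difference between the 2 mutants was called for these genes. Limma called 0 of 5, against 0.0286% of all tested probe sets, and all 5 ranges overlapped, where 6.42% of all tested probe sets lay apart and higher and 4.46% apart and lower. At an unadjusted p under 0.05 there was 1 gene, AT1G21520, higher by 0.30 on puchi-2-labelled arrays (95% interval 0.00 to 0.60, adjusted p = 0.97), where 5.05% of all tested probe sets passed. The other differences lay between −0.28 (AT5G61890, 95% interval −0.99 to 0.42) and 0.32 (AT1G65500, −0.39 to 1.04).

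RCA, a shoot marker, moved with the same groups in the opposite direction, and PRK did so in part. On puchi-2-labelled arrays the change with TOLS2 was −0.51 for RCA (limma adjusted p = 0.117) and −0.80 for PRK (adjusted p = 0.318), neither called, and both had an unadjusted p under 0.05. Under TOLS2, RCA was 6.95 to 7.42 on puchi-2-labelled and 7.63 to 8.09 on rlk7-3 arrays, a called difference of −0.66 (SE 0.15, n = 3, limma adjusted p = 0.028), while PRK, at 2.71 to 3.05 and 2.95 to 3.63, was not called (−0.39, adjusted p = 0.588). In wild type RCA fell by 0.65 with TOLS2 (adjusted p = 0.0355) and PRK changed by 0.00 (adjusted p = 0.998). In rlk7-3 the changes were 0.03 and −0.17, neither called. With 1 array left out the RCA differences kept their size, from −0.73 to −0.56 in wild type and from −0.81 to −0.52 under TOLS2, but the wild-type adjusted p lay above the threshold each time (0.0531 to 0.162). Under TOLS2 the call ended without rlk7-3 TOLS2 replicate 3 or puchi-2-labelled TOLS2 replicate 1 or 2 (up to 0.109). With the replicate number as a block both calls had a lower adjusted p, 0.0012 in wild type and 0.00103 under TOLS2. Over all alternatives 6 of 15 kept the wild-type call and 10 of 16 the other. The part of these markers in the changes of the 5 genes was not tested. Of 4 root hair markers listed, EXPA7 and EXPA18 were measured, and neither was called in any of these comparisons. On puchi-2-labelled arrays they changed by 0.23 and 0.21 with TOLS2, both with an unadjusted p under 0.05, where 12.7% of all tested probe sets passed.

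**Figure D2:**
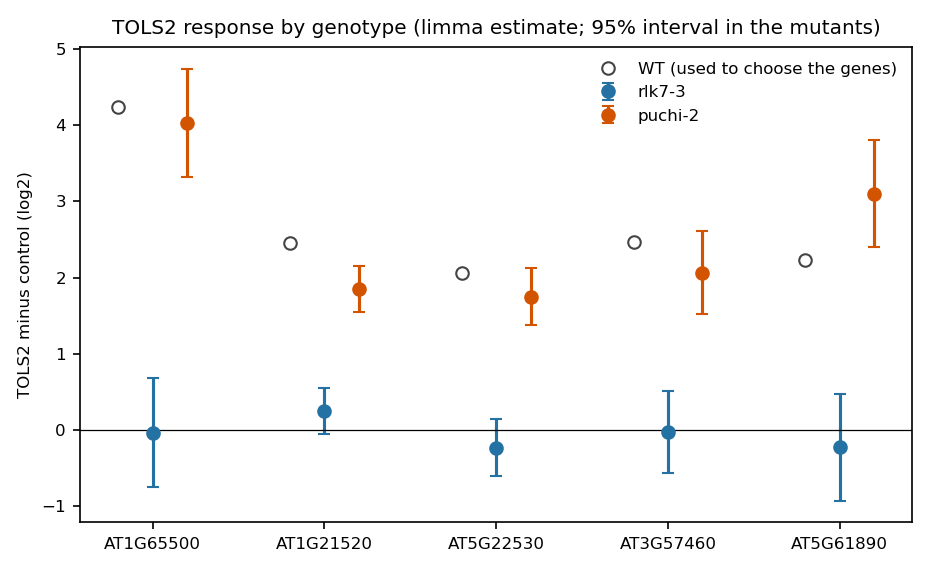
Change with TOLS2 (limma estimate, log2) for each gene in wild type (open circles, the arrays used to choose the genes, drawn without an interval), rlk7-3 (blue) and puchi-2-labelled arrays (orange), with 95% intervals for both mutants. Every rlk7-3 interval includes 0, and the lower ends of the puchi-2-labelled intervals lie between 1.38 and 3.32.

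On puchi-2-labelled arrays all 5 genes rose with TOLS2, where limma called 0.898% of all tested probe sets as higher, and in all 5 the arrays did not overlap (7.38% of all tested probe sets). The median rise was 2.07, beside −0.01 over all tested probe sets. All 5 were called without the replicate 1 arrays and without any single array of both groups. When the fit held the 6 puchi-2-labelled arrays alone, 3 were called, and AT5G22530 (limma adjusted p = 0.0656) and AT5G61890 (0.0549) were not. Of the 1-gene rows ordered by their rise on puchi-2-labelled arrays, AT1G65500 was the third, AT5G61890 the fifth, AT3G57460 the ninth, AT1G21520 number 12 and AT5G22530 number 14. In wild type, where the order helped to choose them, they were 2, 11, 8, 9 and 12 in the same sequence.

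Against the wild-type change, that of 4 genes was smaller on puchi-2-labelled arrays and that of AT5G61890 was larger. The difference was −0.21 (SE 0.47) for AT1G65500, −0.60 (SE 0.20) for AT1G21520, −0.31 (SE 0.25) for AT5G22530, −0.39 (SE 0.36) for AT3G57460 and 0.87 (SE 0.47) for AT5G61890. These values include the wild-type arrays by which the genes were picked for a large rise, and they carry no test. For AT5G61890 the wild-type TOLS2 arrays (5.27 to 5.97) and the puchi-2-labelled ones (5.48 to 7.12) overlapped, and so did those of the other 4 genes. For AT1G21520 the overlap was slight: the highest puchi-2-labelled TOLS2 array was at 5.601 and the lowest wild-type one at 5.598. PUCHI itself, an AP2/ERF gene like AT5G61890, rose by 0.94 on puchi-2-labelled arrays (limma adjusted p = 0.0047) and by 1.96 in wild type (adjusted p = 3.63e-06). The first was not called without the replicate 1 arrays (0.77, adjusted p = 0.14) or with the 6 puchi-2-labelled arrays alone (0.0611). Its response on puchi-2-labelled arrays minus that of wild type was −1.02 (SE 0.21, 95% interval −1.48 to −0.56). This difference was not called (limma adjusted p = 0.709), in a comparison where 0 of 17481 probe sets were called. Its unadjusted p was under 0.05. For AT5G61890 the same difference was 0.87 (SE 0.47). In rlk7-3 PUCHI changed by 0.16 with TOLS2 and was not called (limma adjusted p = 0.856).

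Measured relatives of AT5G61890 had smaller changes in wild type and on puchi-2-labelled arrays. Group X of the AP2/ERF family, to which AT5G61890 belongs, was listed with 8 genes, of which 3 were measured: AT5G61890, ABR1 (a repressor in abscisic acid responses) and AT2G33710. AT2G33710 rose by 0.40 in wild type (1.32-fold, SE 0.09, n = 3, limma adjusted p = 0.0279) and by 0.38 on puchi-2-labelled arrays (adjusted p = 0.0418). In rlk7-3 its change was 0.34 (SE 0.09, 95% interval 0.16 to 0.53, adjusted p = 0.271). Both calls lay near the threshold. With 1 array left out the rise stayed between 0.32 and 0.44 in wild type and between 0.34 and 0.42 on puchi-2-labelled arrays. The wild-type call then held only without TOLS2 replicate 3 (adjusted p from 0.0457 to 0.105), and the other ended in all 6 cases (0.078 to 0.137). The responses of the 2 mutants differed by 0.04 (95% interval −0.23 to 0.30, adjusted p = 0.949), where those of AT5G61890 differed by 3.33. For ABR1 the changes were 0.74 in wild type (adjusted p = 0.0881), 0.34 in rlk7-3 (0.769) and 0.62 on puchi-2-labelled arrays (0.162), none of them called. Of the 2 measured relatives, 1 was thus called as higher in wild type, where 1.15% of all tested probe sets were, 0 in rlk7-3 (1 at an unadjusted p under 0.05) and 1 on puchi-2-labelled arrays.

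The 5 genes lie on chromosomes 1 (AT1G65500 and AT1G21520), 3 (AT3G57460) and 5 (AT5G22530 and AT5G61890), and none is among the 5 nearest genes on either side of another. Of these 50 neighbours, 30 had a row with 1 gene, and limma called 0 of the 30 in each of the tested comparisons and in wild type. Among all 17481 tested probe sets it called 321 in wild type, 1 in rlk7-3 and 279 on puchi-2-labelled arrays. Between the mutants it called 54 by response, 452 under TOLS2 and 5 in control. At an unadjusted p under 0.05 there were 5 of the 30 neighbours in wild type, 3 in rlk7-3 and 4 on puchi-2-labelled arrays. There were 1, 1 and 2 when the mutants were compared by their response, under TOLS2 and in control. Over all tested probe sets the shares at that p were 11.9%, 7.18% and 12.7%, and 9.72%, 17.5% and 5.05%. Their changes ran from −0.80 to 0.55 on puchi-2-labelled arrays (median −0.06), from −0.80 to 0.28 in rlk7-3 (median −0.01) and from −0.58 to 0.56 in wild type (median −0.09). AT5G22520, next to AT5G22530, had the highest value in wild type, 0.56 (limma adjusted p = 0.155), and on puchi-2-labelled arrays, 0.55 (adjusted p = 0.161), with −0.14 in rlk7-3. AT1G65484, a neighbour of AT1G65500, had the lowest on puchi-2-labelled arrays (−0.80, adjusted p = 0.0518). AT1G65490 and AT1G65510, on either side of AT1G65500, changed there by 0.16 and −0.14, neither called, beside the rise of 4.03 of AT1G65500.

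**Figure D3:**
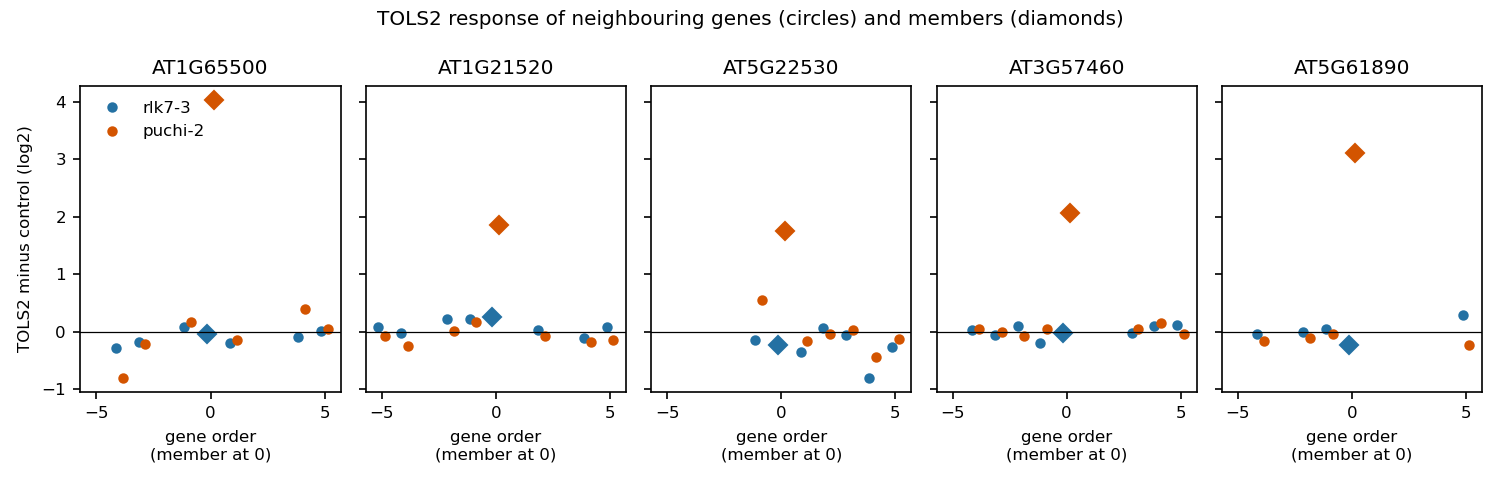
Change with TOLS2 (log2) of each gene (diamonds, at 0 on the horizontal axis) and of its measured neighbours (circles, by gene order along the chromosome) in rlk7-3 (blue) and on puchi-2-labelled arrays (orange). Neighbours stay between −0.80 and 0.55, while the orange diamonds lie between 1.75 and 4.03.

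Likeness of patterns was measured as the root mean square difference between profiles over the 18 arrays, each centred on its own mean, so that 0 means the same shape and size. Among 16721 other 1-gene rows, AT1G21520 was nearest to AT5G22530 (0.28) and then to AT3G57460 (0.30), where the median of all rows was 1.07. For AT3G57460 the same 2 genes came first (AT1G21520, then AT5G22530 at 0.38). AT5G22530 was nearest to AT4G11000 (0.26), which rose by 1.68 on puchi-2-labelled arrays and changed by −0.03 in rlk7-3, and AT1G21520 came next. AT1G21520, AT5G22530 and AT3G57460 thus form the tightest set among the 5, and the arrays that chose them are part of this measure.

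AT1G65500 and AT5G61890 had other partners. AT1G65500 was nearest to PRX52, a class III peroxidase gene (0.48), then to AT2G43620 (0.60) and AT4G08780 (0.78), where the median of all rows was 2.14. It was at least 1.10 from each of the other 4 genes. AT5G61890 was nearest to AT4G36430 (0.44), then to XTH20, a xyloglucan endotransglucosylase gene (0.53), and AT3G57460 (0.54). The arrays of both mutants are part of this measure, so the responses of these partners are a description and no independent result. On puchi-2-labelled arrays PRX52 changed by 4.27, AT2G43620 by 3.45, AT4G08780 by 4.13, AT4G36430 by 2.78 and XTH20 by 2.63. In rlk7-3 the changes were 0.29, 0.03, −0.21, 0.16 and 0.51. For XTH20 the difference between the responses of the 2 mutants was not called (limma adjusted p = 0.166).

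**Figure D4:**
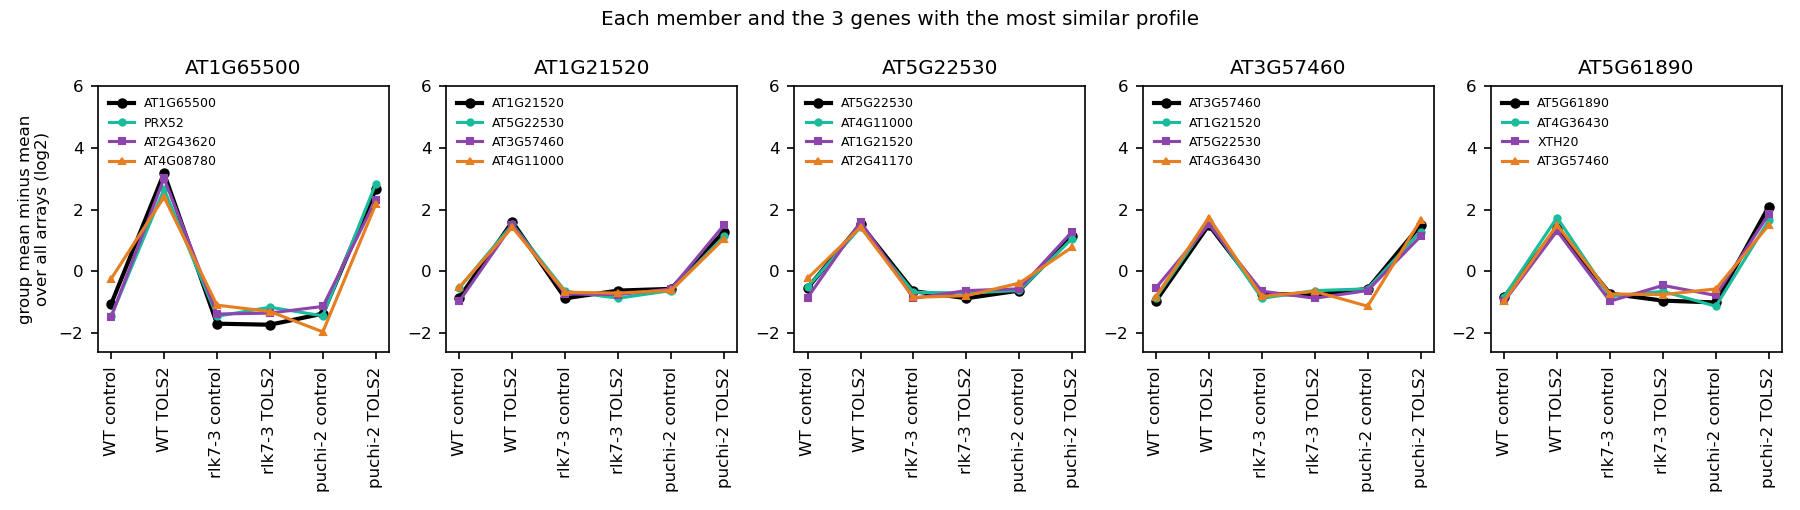
Group means centred on the mean over all arrays (log2) for each of the 5 genes (black) and the 3 genes with the smallest root mean square difference from it (coloured), over the 6 groups on the horizontal axis. The curves share high values in the wild-type and puchi-2-labelled TOLS2 groups, and the control level of AT4G08780 lies lower on puchi-2-labelled than on wild-type arrays.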

How the data were processed

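Single-colour arrays were read from 18 root tip samples, grouped by their titles. The deposited values are log2 levels per probe set that the authors made with RMA (background correction, quantile normalization, probe summary), as the submitters' processing notes say. No source used here states the genome build, probe set definition or software version. RMA shrinks differences of dim probe sets and hides a shift shared by most genes. Of 38408 rows, 16722 had 1 gene and 759 several in the platform annotation, and these 17481 were tested. RefSeq (TAIR10.1) names matched 16574 of the 1-gene rows and also gave the order of genes.

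R 4.3.3 and limma 3.58.1 (lmFit, eBayes, 6 group means, 12 residual degrees of freedom) gave 5 tested comparisons, with no filter. The script was tested on simulated data. The number of arrays, 3 a group, limits the precision.

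The members and lists were chosen with earlier results of these data known. Named genes are the 5 members, PUCHI, the AP2/ERF group X, neighbours (5 a side) and the 3 most like genes. Related proteins and promoter motifs were planned and are not analysed here. Alternatives covered scaling, variance model, array weights, replicate block, rows and arrays used. Those for PUCHI, AT2G33710 and RCA were chosen after seeing the data.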

Additional observations from a re-analysis of the deposited data

Results flagged for a closer look

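For all 5 genes the response to TOLS2 differed between the mutants in limma's test of the difference itself. The response of puchi-2-labelled arrays minus that of rlk7-3 arrays was 4.06 for AT1G65500, 1.61 for AT1G21520, 1.98 for AT5G22530, 2.09 for AT3G57460 and 3.33 for AT5G61890 on the log2 scale (adjusted p from 0.000882 to 0.0194). Limma called 0.177% of all tested probe sets as larger on puchi-2-labelled arrays. Without the replicate 1 arrays of all groups only AT1G65500 was called. Over the alternatives, the calls among all tested probe sets in this comparison ran from 7 to 88, beside 54 in the main fit. Each gene was higher with TOLS2 on 3 of 3 puchi-2-labelled arrays than on any rlk7-3 array, where 4.78% of all tested probe sets were.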

How the results depend on the processing

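Over 22 alternative settings, 368 of 400 estimates of the 5 genes in the tested comparisons kept their direction and their side of the threshold, 16 were no longer called and 16 turned sign without being called in either setting. For the rise on puchi-2-labelled arrays the number of genes called was 5 except with the 6 arrays of that genotype alone (3). For the response difference it was 3 with the 12 mutant arrays alone and 1 without the replicate 1 arrays, each with fewer arrays in the fit, and 4 to 5 leaving out 1 array. Under TOLS2 it was 4 with the arrays of both groups alone, where AT5G61890 had an adjusted p of 0.059. In the rlk7-3 response and among controls it was 0 throughout. The labels do not say that a replicate number marks a shared batch, and the main values carry no block. Of 45 same-numbered pairs of arrays, 22 had deviations correlated over 0.1 (−0.07 to 0.35). The own number was the highest of the 3 in 78 of 90 cases, and replicate 1 stood apart on the second principal component in all 6 groups. The data thus point to variation shared by same-numbered arrays, which the main values ignore. With the replicate number as a block the numbers of the 5 genes called were equal in all 5 tested comparisons (5 for the rise on puchi-2-labelled arrays, the response difference and under TOLS2, 0 in rlk7-3 and among controls), and calls over the table were 487 on puchi-2-labelled arrays, 772 under TOLS2 and 16 in rlk7-3. The rlk7-3 change of AT1G65500 was 0.0214 with array weights and 0.25 without the replicate 1 arrays (−0.17 to 0.15 leaving out 1 array), that of AT3G57460 0.14 and 0.23 (−0.34 to 0.15). The control difference of AT5G22530 was −0.00399 after renewed quantile normalization, −0.0151 with array weights and −0.0269 without the replicate 1 arrays (−0.0645 to 0.17 leaving out 1 array). The cause was not tested.

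Calls over the table varied more: 39 to 556 beside 279 for the puchi-2-labelled response, 7 to 88 beside 54 for the response difference, 56 to 772 beside 452 under TOLS2, 1 to 12 beside 5 among controls and 0 to 16 beside 1 in rlk7-3. None of the 5 genes (0) had a mean above the median of tested probe sets, so that filter gave no value for them. Each gene had 1 probe set, so averaging probe sets was not run. Low signal, with AT5G22530 and AT3G57460 the dimmest, limits how small a change these arrays can show.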
